A study of Mus musculus with 12 samples.

Results

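The 10 genes described here are the Notch ligands Jag1 and Jag2, the receptors Notch1, Notch2 and Notch4, the proteases Adam10 and Adam17, the DNA-binding factor Rbpj and the target genes Hes1 and Hey1, out of 24421 gene symbols counted. They were chosen by name from the Notch pathway, around Jag1, and Jag1 itself was chosen from these data, for a smaller response to immune complexes when the BET inhibitor was present. The counts of Jag1 in all 4 groups made that choice, so its values are given as a description with no test, and tests are given only for the other 9 genes. Of the 10 genes, 8 passed the filter on low counts, and Hes1 and Hey1 did not.

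Bone marrow of C57BL/6 mice was grown into macrophages (BMDMs) over 5 days in 100 ng/mL M-CSF, and the medium was changed on day 3. There were 12 libraries in 4 groups, and replicates A, B and C, taken here as 3 mice, occur once in each group. With ovalbumin (Ova), cells had the solvent DMSO or I-BET151 (iBET) at 5 uM. With immune complexes (IC) of ovalbumin and IgG, they had DMSO or iBET at the same dose. Stimulation lasted 4 h, and the sources differ on whether iBET was added together with the stimulus, as the labels have it, or before it, as the study's methods have it. All groups shared the strain, M-CSF and ovalbumin, and the labels give no age for the mice. As a model, these are macrophages made in vitro, which each mouse provided once per group.

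Notch receptors are membrane proteins that are activated by ligands of the Jagged and Delta-like families on a neighbouring cell. ADAM proteases and then gamma-secretase cut the bound receptor, and the freed intracellular domain enters the nucleus, where it joins RBPJ and a Mastermind coactivator at target genes such as Hes1 and Hey1. Without the receptor domain, RBPJ recruits corepressors to the same sites. In macrophages, Notch signalling is known for its interplay with Toll-like receptor responses. The inhibitor iBET blocks the binding of bromodomains to acetylated histones.

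The libraries held 7549849 to 17387639 counts assigned to genes. One of them, Ova with DMSO from mouse A, stood apart, with 77.4% of its counts on the ribosomal RNA gene Rn45s and 1768133 counts on all other genes, against 1.41% to 7.83% on Rn45s in the other 11. All 8 macrophage markers were detected, at a summed 6248 to 8511 CPM (counts scaled to a common library size with TMM factors) across the 12 libraries. Summed endothelial markers lay between 29.4 and 45.8 CPM, with Emcn and Sox17 at 0 in every library, and stromal markers summed to at most 2.57 CPM. Megakaryocyte markers summed to 37.7 to 70.2 CPM, most of it Pf4, and markers of neutrophils and their precursors to 9.76 to 56.3 CPM. Dendritic, B, T, erythroid and mast cell markers each summed to at most 1.55 CPM. As these are bulk samples, less RNA per cell and fewer expressing cells cannot be told apart.

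Upstream sequence was compared among Jag1, which was higher with IC, Notch2, which rose with iBET, and Notch4 and Rbpj, which fell with iBET. Each line gives the 250 bases before a RefSeq transcription start (GRCm38.p6), and capitals mark a match to a motif, searched on both strands.
Jag1, chr2:137116521-137116770, minus strand: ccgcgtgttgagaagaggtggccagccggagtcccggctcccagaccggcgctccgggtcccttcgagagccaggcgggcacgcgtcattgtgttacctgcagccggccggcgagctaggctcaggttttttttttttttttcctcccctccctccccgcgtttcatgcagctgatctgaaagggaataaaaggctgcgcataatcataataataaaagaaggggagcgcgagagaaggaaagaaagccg
Notch2, chr3:98013288-98013537, plus strand: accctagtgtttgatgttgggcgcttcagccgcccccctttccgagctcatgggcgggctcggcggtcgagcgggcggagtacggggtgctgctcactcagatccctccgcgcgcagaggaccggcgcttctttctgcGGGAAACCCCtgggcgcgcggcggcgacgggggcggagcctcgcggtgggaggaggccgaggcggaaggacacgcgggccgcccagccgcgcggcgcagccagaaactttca
Notch4, chr17:34564045-34564294, plus strand: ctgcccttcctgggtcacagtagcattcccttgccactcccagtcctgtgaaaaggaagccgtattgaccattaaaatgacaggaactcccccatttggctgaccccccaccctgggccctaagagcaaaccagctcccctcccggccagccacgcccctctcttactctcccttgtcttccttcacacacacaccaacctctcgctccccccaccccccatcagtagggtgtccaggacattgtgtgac
Rbpj, chr5:53590096-53590345, plus strand: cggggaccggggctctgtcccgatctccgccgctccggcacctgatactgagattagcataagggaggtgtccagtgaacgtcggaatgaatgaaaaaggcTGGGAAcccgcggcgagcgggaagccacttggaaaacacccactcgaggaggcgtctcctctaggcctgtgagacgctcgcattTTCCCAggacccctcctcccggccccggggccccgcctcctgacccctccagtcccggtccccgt

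The capitals mark 2 matches to the RBPJ core TGGGAA in the Rbpj sequence, 1 of them as its reverse complement TTCCCA, and 1 match to the 10-base NF-kB motif in the Notch2 sequence. The Rbpj matches began 149 bases before the start on the strand of the gene and 65 bases before it on the other strand, and the Notch2 match began at 112 bases before the start. None of these matches overlapped another motif. The sequence before a second RefSeq start of Rbpj held the match on the other strand again, 205 bases before that start. Both Rbpj starts lie inside the gene span given below, and the sequence before its outer start was not examined. The Jag1, Notch2 and Notch4 stretches also overlap the gene spans given below. No match to these motifs or to the AP-1 motif TGANTCA was found in the Jag1 or Notch4 sequence, nor in those of Jag2, Notch1, Adam10 and Adam17. Among 32851 RefSeq promoters of the same length, 21.6% held the RBPJ core, 6.75% the AP-1 motif and 3.90% the NF-kB motif, so each match is a description of these letters and not of a bound site. The Jag1 sequence held 20 CpG dinucleotides, the Notch2 sequence 34, the Notch4 sequence 4 and the Rbpj sequence 21, against a median of 6 over all promoters. Hes1 and Hey1 are not in the table used.

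Jag1, on chromosome 2 (137081456-137116644, minus strand, mm10), encodes the ligand Jagged 1. Its levels with Ova and DMSO were 112, 117 and 102 CPM in mice A, B and C. With IC and DMSO they were 248, 306 and 269 CPM. With Ova and iBET the values were 134, 141 and 99.5 CPM, and with IC and iBET 160, 186 and 132 CPM. The 3 libraries with IC and DMSO were thus above the other 9, while the groups with iBET overlapped each other and the lowest iBET value lay below all Ova values with DMSO. In order of their means, the groups were IC with DMSO at 274 ± 29.8 CPM (SD, n = 3), IC with iBET at 159 ± 27.1, Ova with iBET at 125 ± 22.3 and Ova with DMSO at 111 ± 7.57. Both neighbouring pairs among the lower 3 groups overlapped, and the top group did not overlap the next.

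**Figure D1:**
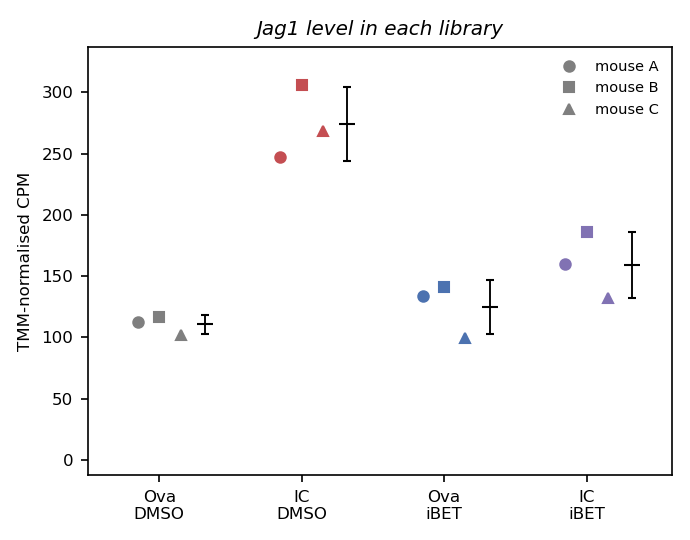
Jag1 level in TMM-normalised CPM (vertical axis) in the 4 groups (horizontal axis). Each symbol is 1 library, with its shape giving the mouse, and the black mark is the mean ± SD of 3 mice. The 3 libraries with IC and DMSO sit between 248 and 306 CPM, above all others.

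In the edgeR fit, the change of Jag1 with IC was 1.31 on the log2 scale (SE 0.157), a ratio of 2.48, with DMSO. With iBET it was 0.35 (SE 0.153), a ratio of 1.28. By mouse, the log2 change with IC was 1.14, 1.39 and 1.39 with DMSO and 0.26, 0.40 and 0.41 with iBET. So Jag1 was higher with IC in 3 of 3 mice under either condition, and the difference between the responses was -0.96 (SE 0.218) in the fit, negative in 3 of 3 mice. Set the other way, iBET went with a log2 difference of 0.18 (SE 0.155) among Ova cells and of -0.78 (SE 0.153) among IC cells. Counted from the highest of 11468 genes, the IC change of Jag1 ranked 60 with DMSO and 745 with iBET, and its difference between responses ranked 138 from the lowest. Leaving out single libraries or mice moved the IC change with iBET between 0.21 without the Ova and iBET library of mouse C and 0.47 without the IC and iBET library of mouse C, and it was 0.23 without the IC and iBET library of mouse B. It moved the iBET difference in Ova cells between 0.08 and 0.32.

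Likeness to the Jag1 profile was measured as the root mean square gap between log2 CPM values, each centred on its own mean, over 12 libraries and 9427 genes with a mean count of at least 50. The nearest genes were Zc3h12c, Slc4a7, Ralgds, Bend3 and Chst11, with gaps of 0.23, 0.23, 0.26, 0.26 and 0.26 on the log2 scale, against a median of 0.61 over the genes compared and 0.53 between Jag1 and a flat profile. Zc3h12c, of the Regnase family of RNA-binding proteins, had means of 45.7 CPM with Ova and DMSO, 91.8 with IC and DMSO, 45.7 with Ova and iBET and 74.5 with IC and iBET. Slc4a7, a bicarbonate transporter, had 150 CPM, 274, 147 and 200 in the same order. For the 5 genes from Zc3h12c to Chst11, the fitted difference between the IC responses was -0.31, -0.42, -0.22, -0.59 and -0.16, against -0.96 for Jag1. Leaving out mouse A or mouse B kept 2 of these 5 genes among the nearest, and leaving out mouse C kept 4. For Hes1 no such genes are named, since its counts ran from 0 to 3.

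Per kilobase of exon, the members spanned a wide range. The length was that of all annotated exons of a gene and not of the transcript expressed, so comparisons between genes are approximate. With Ova and DMSO the highest were Adam10 at 61.1 ± 1.34 CPM per kb (SD, n = 3) and Rbpj at 59.7 ± 5.89, whose libraries overlapped. Adam17 followed at 29.4 ± 1.49, then Jag1 at 19.0 ± 1.30 and Notch2 at 18.3 ± 3.67, which overlapped each other. Notch1 at 2.24 ± 0.346 and Notch4 at 2.02 ± 0.485 also overlapped, and Jag2 stood at 0.579 ± 0.139. Notch2 was therefore the most abundant receptor transcript in each of the 4 groups. With IC and DMSO, Jag1 reached 47.1 ± 5.12 CPM per kb and overlapped Adam10 at 48.6 ± 1.71. In the iBET groups the receptors lay further apart, with Notch2 at 31.9 ± 3.70 and 37.2 ± 1.96, Notch1 at 4.27 ± 0.111 and 4.61 ± 0.257, and Notch4 at 0.467 ± 0.172 and 0.637 ± 0.173 for Ova and IC.

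**Figure D2:**
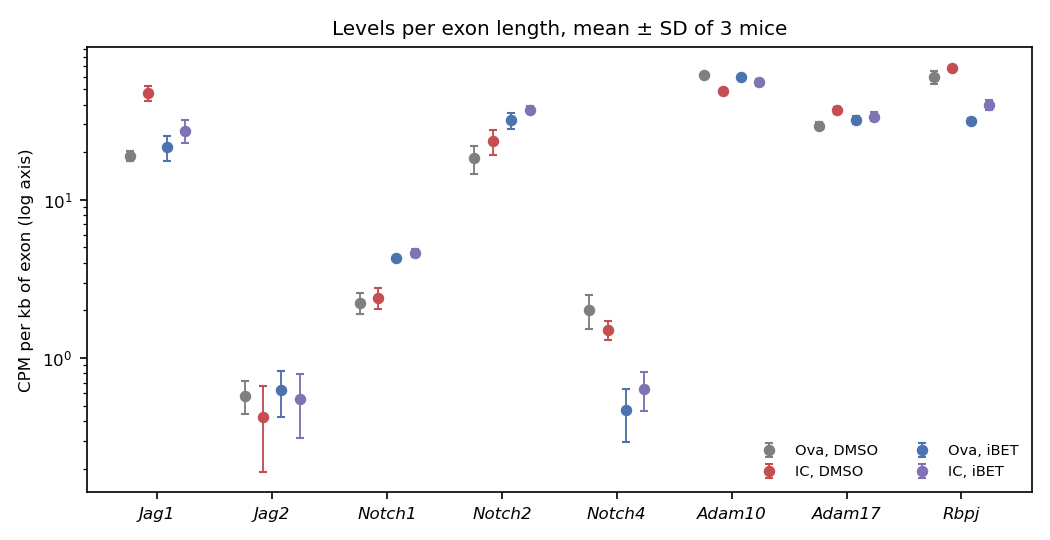
Mean level in CPM per kb of exon (vertical log axis) of the 8 members that passed the count filter, by group (colours), with bars for the SD of 3 mice. Notch2 lies above Notch1 and Notch4 in all 4 groups, and Notch4 is lower in both iBET groups than in the DMSO groups.

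The first question of the design was what IC changed in the presence of DMSO. None of the 7 tested members other than Jag1 passed an adjusted p of 0.05 in edgeR's quasi-likelihood test, beside 140 of 11468 genes (1.22%). At an unadjusted p under 0.05 there were 3, Adam10, Adam17 and Notch2, and DESeq2 called 1, Adam10. With the mouse as a block, Adam10 and Adam17 were called, beside 2.75% of all genes. The replicate letters were taken as mice that gave all 4 groups, and blocked values are given beside a result below where the block changed a call.

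Adam10, on chromosome 9 (70678997-70780229), encodes the protease that makes the ligand-dependent cut in Notch receptors. Its levels were 298, 295 and 307 CPM with Ova and DMSO in mice A, B and C, and 246, 230 and 240 CPM with IC and DMSO. The groups did not overlap, and each mouse was lower with IC. The log2 difference was -0.33 (SE 0.0813, adjusted p = 0.0821 with edgeR), and its adjusted p was 0.0399 with the mouse as a block. With iBET the values were 301, 283 and 296 CPM for Ova and 269, 260 and 285 CPM for IC, which overlapped, at a log2 difference of -0.11 (SE 0.0809, adjusted p = 0.828).

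Adam17, on chromosome 12 (21323509-21373632), encodes the sheddase of TNF and of other surface proteins, which can also cut Notch. It had 200, 210 and 222 CPM with Ova and DMSO, and 248, 263 and 278 CPM with IC and DMSO. Here the IC libraries were the higher ones, without overlap, and the 3 mice gave nearly the same log2 change, 0.31, 0.33 and 0.33. The fitted difference was 0.32 (SE 0.0927, adjusted p = 0.147), with an adjusted p of 0.0489 with the mouse as a block. With iBET, 215, 233 and 240 CPM for Ova and 222, 252 and 247 CPM for IC overlapped, and the log2 difference was 0.07 (SE 0.0922, adjusted p = 0.928). The exons of Adam17 share 311 bases with Iah1 on the opposite strand, and whether the counting used strand was not given in the sources used here.

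The receptors and Rbpj gave no call with IC. Notch2 differed by 0.36 (SE 0.161, adjusted p = 0.415) with DMSO and 0.22 (SE 0.159, adjusted p = 0.826) with iBET, and was higher with IC in 3 of 3 mice in both. Notch4 differed by -0.45 (SE 0.266, adjusted p = 0.596) with DMSO and by 0.42 (SE 0.298, adjusted p = 0.823) with iBET. Notch1 differed by 0.08 (SE 0.132) and 0.11 (SE 0.126). Rbpj differed by 0.18 (SE 0.0968, adjusted p = 0.534) with DMSO and 0.33 (SE 0.0969, adjusted p = 0.294) with iBET, in each case with the IC libraries above the Ova libraries.

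The second question was whether IC changed these genes when iBET was present. Again no member of the 7 tested was called, beside 40 of 11468 genes (0.349%), by edgeR with or without the mouse as a block or by DESeq2, and 1, Rbpj, had an unadjusted p under 0.05. For the difference between the IC responses, edgeR called 0 genes of 11468 (0.00%) with 292 at an unadjusted p under 0.05, and DESeq2 called 4. No member of the 7 was among the calls of either tool, and Notch4 alone had an unadjusted p under 0.05 (adjusted p = 1.00 in edgeR).

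The third question was what iBET changed, and here the receptors moved in opposite directions. Notch1 and Notch2 rose and Notch4 and Rbpj fell, in Ova and in IC cells, while Jag2, Adam10 and Adam17 were not called. In Ova cells 4 of 7 tested members were called, beside 31.3% of all genes. Of these, 2 were higher, beside 17.1% of all genes, and 2 were lower, beside 14.2%. In IC cells the count was also 4 of 7, beside 34.8% of all genes, with 2 higher and 2 lower, beside 19.0% and 15.8%. The median log2 difference of the 7 was 0.12 in Ova and 0.18 in IC, and that of all genes 0.0193 and -0.00366. Without the library of mouse A that was rich in Rn45s, 4 members were still called in each of these comparisons.

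Notch1, on chromosome 2 (26457903-26516663, minus strand), is the receptor best known for T cell fate. It stood at 26.2, 34.2 and 35.1 CPM with Ova and DMSO and at 62.2, 61.2 and 59.1 CPM with Ova and iBET. With IC it had 29.6, 40.2 and 33.1 CPM in DMSO and 64.3, 69.8 and 62.8 CPM in iBET. Every iBET library lay above every DMSO library. Notch1 rose by 0.90 on the log2 scale with iBET in Ova cells (SE 0.132, adjusted p = 0.00028 with edgeR), a ratio of 1.87, and by 0.94 in IC cells (SE 0.129, adjusted p = 0.000154). Part of its exons, 1068 bases, is shared with 0610009E02Rik on the opposite strand, and 414 bases with Gm13568, also on the opposite strand.

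Notch2, on chromosome 3 (98013527-98150361), is the receptor known for the development of some monocyte, dendritic cell and marginal zone B cell subsets. Its levels were 160, 192 and 239 CPM with Ova and DMSO and 310, 334 and 388 CPM with Ova and iBET. IC cells had 201, 284 and 275 CPM in DMSO and 377, 415 and 411 CPM in iBET. The iBET libraries lay above the DMSO libraries in both stimuli. The log2 change was 0.80 in Ova cells (SE 0.161, adjusted p = 0.00262), a ratio of 1.74, and 0.66 in IC cells (SE 0.160, adjusted p = 0.00667). Without mouse B both calls were lost, at adjusted p = 0.0738 in Ova and 0.0815 in IC, with log2 changes of 0.80 and 0.73. The exons of Notch2 share 541 bases with Gm42820 on the same strand.

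Notch4, on chromosome 17 (34564268-34588503), is a receptor best known from endothelial cells. Its levels were 14.4, 20.8 and 13.7 CPM with Ova and DMSO and 3.40, 5.29 and 2.60 CPM with Ova and iBET. With IC they were 10.2, 13.3 and 12.9 CPM in DMSO and 3.52, 6.01 and 5.87 CPM in iBET. The DMSO libraries were all above the iBET libraries. Notch4 fell by 2.14 on the log2 scale in Ova cells (SE 0.290, adjusted p = 0.000166), a ratio of 4.41, and by 1.26 in IC cells (SE 0.277, adjusted p = 0.00371), a ratio of 2.40. Summed endothelial markers were 37.5 to 40.3 CPM with Ova and DMSO and 29.4 to 33.0 with Ova and iBET. They were 42.8 to 45.8 CPM with IC and DMSO and 32.2 to 40.1 with IC and iBET. Of the 7 endothelial markers 3 passed the count filter, Kdr and Vwf made most of the sum, and the defining markers Emcn and Sox17 were at 0. Mean Kdr was 19.3 CPM in DMSO and 12.3 in iBET with Ova, and 24.1 and 14.5 with IC. Mean Vwf was 18.9 and 17.9 CPM with Ova, and 19.1 and 20.5 with IC, so the lower sums came mostly from Kdr. The part of these markers in the Notch4 result was not tested.

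Rbpj, on chromosome 5 (53466152-53657362), encodes the factor through which all Notch receptors reach DNA. With Ova it had 687, 758 and 837 CPM in DMSO and 417, 404 and 392 CPM in iBET. With IC the values were 854, 880 and 852 CPM in DMSO and 524, 465 and 535 CPM in iBET. There was no overlap between DMSO and iBET libraries. Rbpj fell by 0.91 in Ova cells (SE 0.0977, adjusted p = 2.96e-05), a ratio of 1.88, and by 0.76 in IC cells (SE 0.0973, adjusted p = 9.11e-05), a ratio of 1.70. Both falls were seen in 3 of 3 mice.

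**Figure D3:**
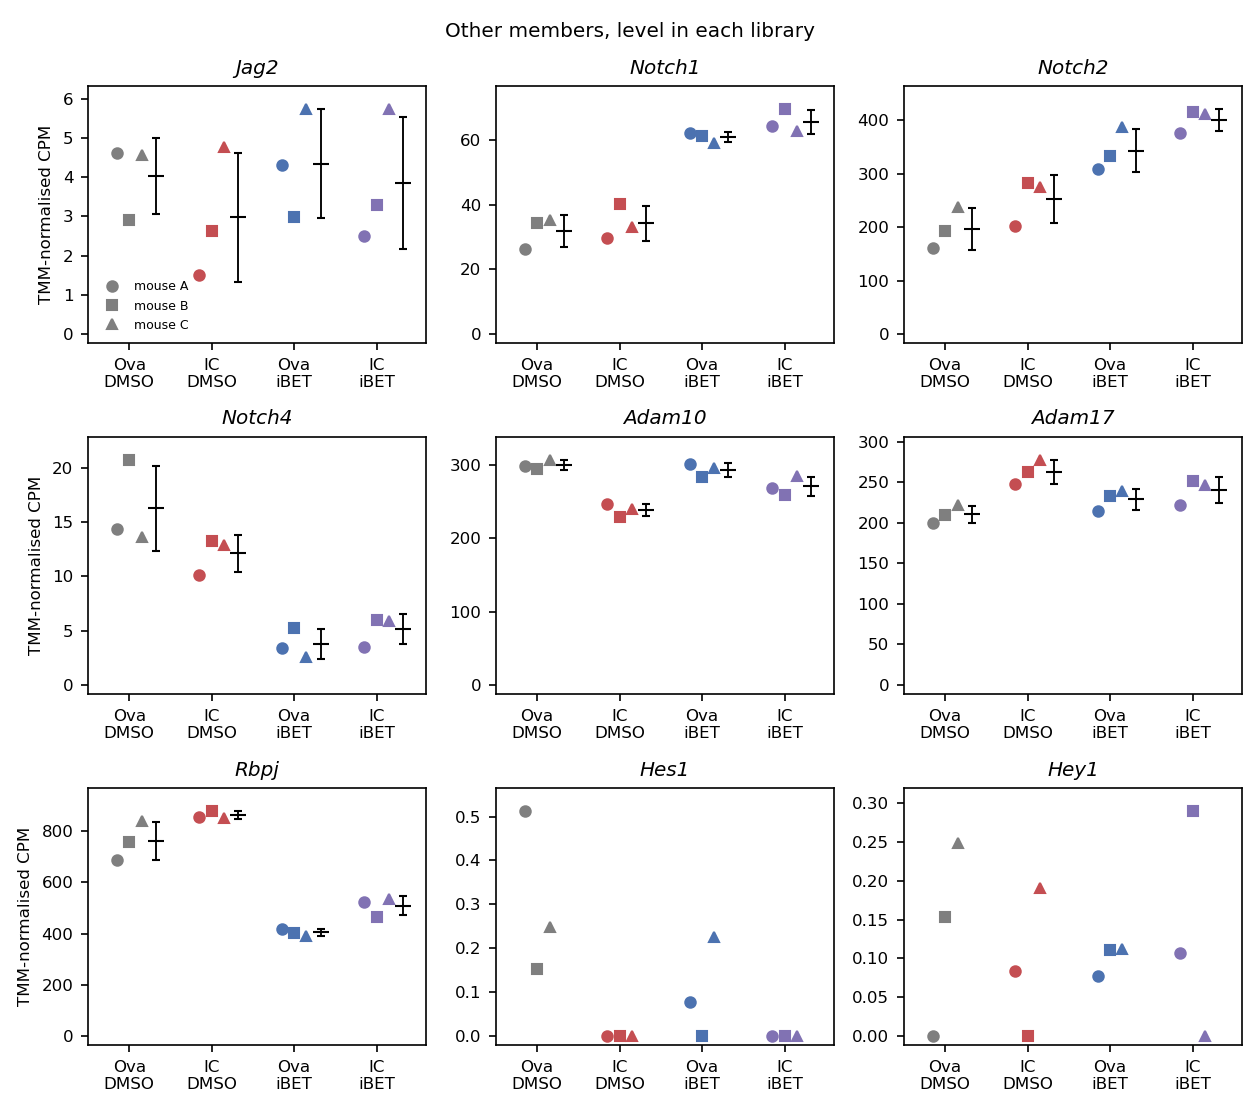
Levels in TMM-normalised CPM (vertical axes) of the 9 members other than Jag1 in the 4 groups (horizontal axes). Symbols are libraries with the shape giving the mouse, and black marks are the mean ± SD of 3 mice, left out for Hes1 and Hey1. Notch1 and Notch2 are higher and Notch4 and Rbpj lower in iBET than in DMSO libraries, and Hes1 is at 0 in all 6 IC libraries.

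Among the members that iBET did not change by the test, Jag2, the second Jagged ligand, was near the limit of these libraries with 457 counts in all. Its group means were 4.03 ± 0.969 CPM (SD, n = 3) with Ova and DMSO, 2.97 ± 1.65 with IC and DMSO, 4.35 ± 1.39 with Ova and iBET and 3.85 ± 1.69 with IC and iBET, which all overlapped. The iBET difference of Jag2 was 0.17 (SE 0.433) in Ova cells and 0.33 (SE 0.426) in IC cells, so that a change as large as that of Notch1 lay within 2 SE of each estimate. Adam10 differed by -0.03 (SE 0.0812) in Ova and 0.18 (SE 0.0810, adjusted p = 0.0977) in IC cells. Adam17 differed by 0.12 (SE 0.0927) in Ova and -0.13 (SE 0.0921) in IC cells, with adjusted p = 0.358 and 0.296.

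Hes1 and Hey1, repressors that are the usual readouts of Notch activity, were almost silent. Hes1 had 9 counts in all, namely 1, 2 and 3 with Ova and DMSO, 1, 0 and 2 with Ova and iBET, and 0 in all 6 IC libraries. A count of 0 in those libraries allows up to 0.160 to 0.359 CPM, with 3 counts as the limit, for counting error only. Hey1 had 16 counts in all, 8 in the 6 Ova libraries and 8 in the 6 IC libraries, and at most 3 in any library. At this depth no difference between groups could be read from either gene.

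Other genes of the pathway were taken from a list of 58 by role, of which 45 passed the filter. No other ligand was measurable, since Dll1, Dll3, Dll4, Dlk1 and Dlk2 failed the filter, as did the receptor Notch3 and the targets Hes5, Hes7, Hey2 and Heyl. With IC, 0 of 45 were called by edgeR in DMSO or in iBET, with 4 (Numb, Numbl, Ep300 and Kat2b) and 1 (Maml3) at an unadjusted p under 0.05, and DESeq2 called 2 in DMSO, Numb and Ep300, and 0 in iBET. With iBET, 15 of 45 (33.3%) were called in Ova cells, 7 higher and 8 lower, and 16 of 45 (35.6%) in IC cells, 7 higher and 9 lower. These shares lay close to the 31.3% and 34.8% of all genes, and 11 of the genes were called in both. Without mouse B the counts were 4 and 7, and without mouse C they were 6 and 9. In Ova cells 9 were called without the Ova and iBET library of mouse B, and in IC cells 10 without the IC and DMSO library of mouse B. Over all genes, leaving out mouse B gave calls for 11.4% and 15.4%, leaving out mouse C for 17.6% and 21.6%, and the last 2 fits for 23.1% and 31.1%. With the mouse as a block, 18 were called in Ova and 21 in IC cells, beside 38.3% and 42.1% of all genes. The block added Neurl1b (lower), Pofut1 and Hdac1 (higher) in Ova cells, and Neurl1b and Poglut1 (lower) and Tle4, Hdac1 and Ctbp1 (higher) in IC cells.

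By role and without the block, 1 of 8 genes of receptor processing rose in either stimulus, Aph1b, and 1 fell, Psenen, both subunits of gamma-secretase. Among 5 glycosyltransferases, Lfng was higher in both and Pofut1 in IC cells, with none lower. Of 4 genes listed as ligand ubiquitin ligases, Mib1 was higher and Mib2 and Neurl3 lower in Ova cells, and Mib2 was lower in IC cells. With the block Neurl1b was also lower in both, at adjusted p = 0.0177 and 0.00365 in edgeR. No coactivator of 8 was higher, while Maml2 was lower in both stimuli and Maml3 and Kat2a in IC cells. Of 11 corepressors, Ctbp2 was lower in both, and Spen and Ctbp1 were higher in Ova cells. Of 8 genes listed as negative regulators, Numbl and Dtx2 were higher and Numb, Dtx3l and Dtx4 lower in both. Itch was higher in IC cells. Of the 5 genes listed as targets, Hes6 was the 1 measured, and it was higher in IC cells. This call was lost in 9 of 10 other fits and in 13 of the 15 that left out a library or a mouse. Whether Hes6 follows Notch activity in these cells was not tested. The difference between the stimuli was tested by the interaction, in which edgeR and DESeq2 called 0 of 45, with 1, Numb, at an unadjusted p under 0.05 in edgeR.

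Calls that held in every fit that left out a library or a mouse were those of Lfng, Maml2, Numb and Dtx4 in Ova cells and of Aph1b, Lfng, Maml2, Ctbp2, Numbl and Dtx4 in IC cells. Lfng, a sugar transferase that alters which ligands Notch responds to, had 75.5, 70.8 and 59.3 CPM with Ova and DMSO and 181, 154 and 146 CPM with Ova and iBET. The rise in log2 was 1.24 with Ova (SE 0.126, adjusted p = 1.96e-05). With IC it was 1.38 (SE 0.124, adjusted p = 6.72e-06). Maml2, a Mastermind coactivator, had 7.70, 8.36 and 6.71 CPM with Ova and DMSO and 2.55, 1.65 and 1.47 CPM with Ova and iBET. It fell by 1.97 on the log2 scale with Ova (SE 0.264, adjusted p = 0.000156) and by 1.44 with IC (SE 0.251, adjusted p = 0.000836). Dtx4, a Deltex ubiquitin ligase, had 76.5, 75.5 and 65.9 CPM with Ova and DMSO and 34.2, 35.1 and 27.0 CPM with Ova and iBET, a fall of 1.17 (SE 0.134, adjusted p = 4.62e-05). Numb, an adaptor that antagonises Notch, fell by 0.57 in Ova cells (SE 0.0820, adjusted p = 0.000243).

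**Figure D4:**
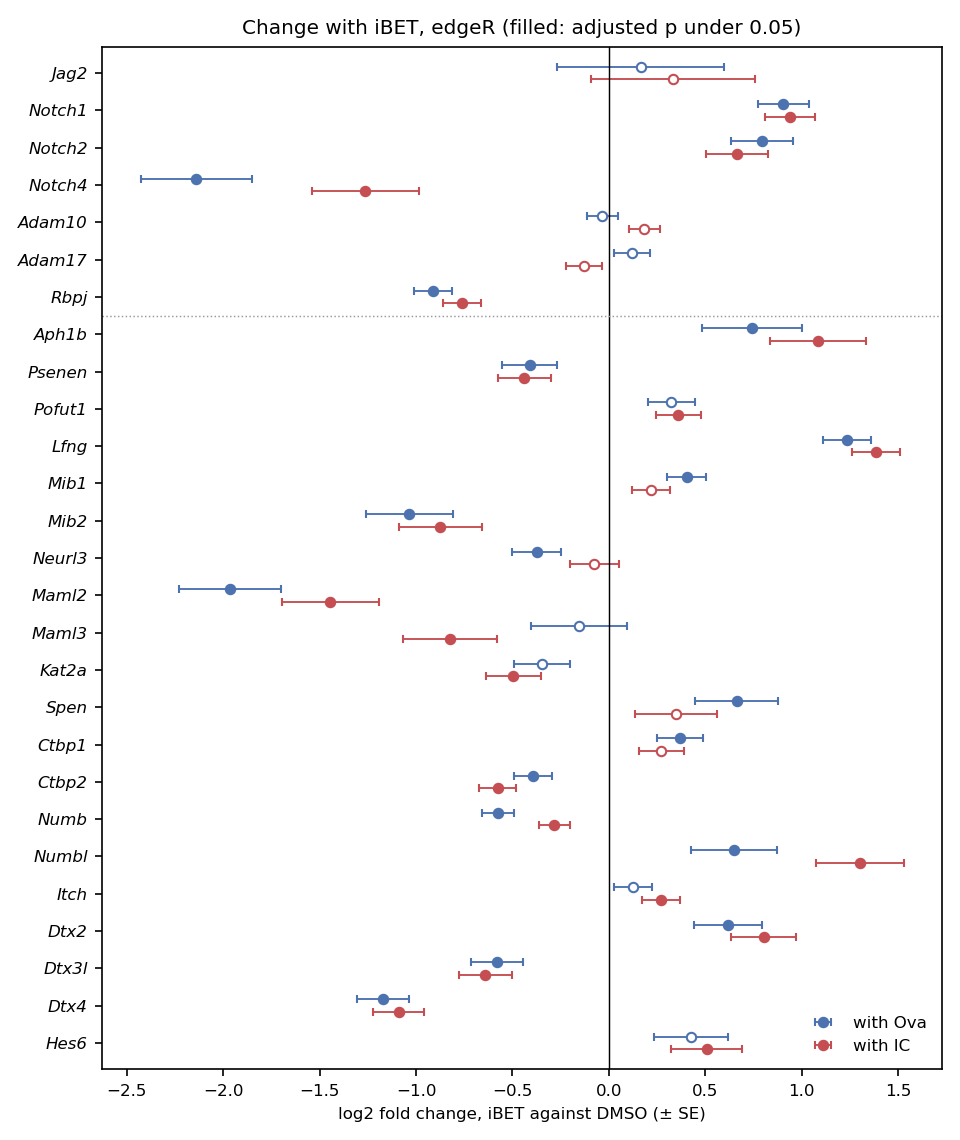
The log2 fold change with iBET against DMSO (horizontal axis, ± SE from edgeR) for the 7 tested members other than Jag1, above the dotted line, and for every other Notch gene called in either stimulus, in Ova cells (blue) and IC cells (red). Filled symbols have an adjusted p under 0.05. Notch1, Notch2 and Lfng lie to the right of 0, and Notch4, Rbpj, Maml2 and Dtx4 to the left, in both stimuli.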

How the data were processed

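RNA was extracted from BMDMs for 12 libraries, in 4 groups of 3 replicates, taken from the labels. Per the labels, libraries came from a low-input total RNA kit, and the authors trimmed reads with Trim Galore, aligned them to mm10 with HISAT2 and counted reads per gene with featureCounts; strand setting and versions were not given in the sources used here. The deposited counts were used as deposited, and the deposited normalized signal equals those counts divided by DESeq2 size factors (largest relative gap 4.89e-15), so it served only as an alternative. SDs and standard errors rest on 3 mice a group and hold the spread between libraries, and only the limit for 0 counts covers counting error alone.

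Counts of 24421 symbols were filtered with filterByExpr (minimum count 10), scaled by TMM and fitted with edgeR 4.0.16 (R 4.3.3) by group means over all 12 libraries with robust quasi-likelihood tests, and Benjamini-Hochberg adjustment ran over 11468 genes at a threshold of 0.05. CPM values are TMM-normalised, and per-mouse changes use log2 CPM with a prior count of 2. Scripts were tested on simulated data. Alternatives were DESeq2 1.42.0, limma 3.58.1, sva 3.50.0, other filters and scalings, and leaving out libraries. Total counts ran from 7549849 to 17387639.

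The replicate letters A, B and C recur in every group and were taken as 3 mice, so changes by mouse are paired. The main edgeR fit used group means without this pairing. Its SEs, adjusted p-values and calls are therefore unpaired, and only the fits with the mouse as a block use the pairing. The study states only that its replicates came from independent mice. Over 18 same-mouse pairs of libraries, deviations from group means correlated at a median of 0.26 (lowest -0.07, highest 0.54), with 12 over 0.1. Over 36 pairs of different mice the median was -0.13, with 6 over 0.1. The Ova and iBET library of A correlated at -0.05 and -0.07 with the DMSO libraries of A, and at 0.23 and 0.27 with those of B. The Ova and iBET library of B correlated at -0.06 and -0.01 with the DMSO libraries of B, and at 0.18 and 0.26 with those of A. With the IC and iBET libraries, the Ova and iBET library of A correlated at 0.22 for A and 0.05 for B. That of B correlated at 0.09 for B and 0.19 for A. Whether the letters of these libraries were exchanged was not tested, and changes by mouse rest on the letters as given. Whether cultures were separate beyond the mouse was not given, so p-values measure the spread between these samples.

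The genes and lists were chosen with earlier results of these data known. Genes named are the 10 members, other Notch genes called in any comparison, and the 5 genes nearest to Jag1 in profile. Exon lengths and gene positions come from GENCODE vM21 (mm10). Promoter sequences come from RefSeq (GRCm38.p6), with 8 of 10 members matched.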

Additional observations from a re-analysis of the deposited data

Results flagged for a closer look

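The response of Notch4 to IC was negative in 3 of 3 mice with DMSO (log2 changes of -0.49, -0.63 and -0.09). It was positive in 3 of 3 with iBET (0.05, 0.18 and 1.12), so the signs were opposite for each letter taken as a mouse. The interaction in edgeR was 0.88 (SE 0.399, adjusted p = 1.00), which did not pass the threshold.

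Adam17 changed with iBET by 0.10, 0.15 and 0.11 in Ova cells of mice A, B and C and by -0.16, -0.06 and -0.17 in IC cells, again with opposite signs in all mice. Its interaction was -0.25 (SE 0.131, adjusted p = 1.00 in edgeR) and did not pass the threshold either.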

How the results depend on the processing

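The iBET calls of Notch1, Notch2, Notch4 and Rbpj held in both stimuli under DESeq2, other scalings and filters, a surrogate variable, the mouse as a block, the normalized signal in limma and an adjusted p under 0.01, and were lost for Notch2 alone, without mouse B. With IC and DMSO, where 0 of 7 members were called, DESeq2 called 1, a surrogate variable 1, and the mouse as a replicate block 2 in edgeR and 2 in DESeq2, beside 2.36%, 3.40%, 2.75% and 3.86% of all genes. For the other Notch genes in that comparison DESeq2 called 2, the block in DESeq2 2 (Numb and Ep300 in each) and a surrogate variable 1 (Numb). The block changed the call of no member elsewhere. At an adjusted p under 0.01, 8 other Notch genes were called with iBET in Ova and 9 in IC cells, beside 18.6% and 21.8% of all genes. Beside the fits that left out a library or a mouse, there were 10 others at the 0.05 threshold, including that with the compared groups alone. In these, Hes6 lost its call in 9, Itch and Numbl (Ova) in 8, Ctbp1 in 6, Pofut1 in 5, Aph1b (Ova) in 4. Psenen (Ova) lost its call in 2, and Neurl3, Kat2a, Numb (IC) and Dtx2 (Ova) in 1 each.

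Leaving out a library or a mouse gave 4 to 18 other Notch genes called with iBET in Ova, 7 to 18 in IC, and 0 to 1 with IC in iBET, the 1 being Spen without mouse A. Jag1 ranged from 0.21 to 0.47 for IC in iBET, from 0.08 to 0.32 for iBET in Ova and from -1.10 to -0.84 for the difference between responses, and 2 to 4 of its 5 nearest genes were shared. Signs turned for changes that were not called. Jag2 ranged from -0.920 to 0.0109 for IC in DMSO, from -0.600 to 0.0622 for IC in iBET, from -0.0740 to 0.369 for iBET in Ova, from -0.0449 to 0.866 for iBET in IC and from -0.21 to 0.70 for the interaction. Notch1 ranged from -0.0517 to 0.170 for IC in DMSO and from -0.0543 to 0.162 for the interaction, and Notch2 from -0.294 to 0.0170 for the interaction. The cause was not tested. Jag2 gave no value under the filter of 10 counts in every library, and no interaction was fitted with the compared groups alone.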

Other observations

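Nrarp, a small ankyrin-repeat inhibitor of Notch that is itself a target of the pathway, failed the filter on low counts, and its values were looked at after the others were seen. It had 0 counts in all 6 DMSO libraries. With iBET it had 4, 4 and 2 counts in Ova cells and 8, 4 and 3 in IC cells of mice A, B and C, 25 in all. At 0 counts, 3 counts is the limit. With Ova, the iBET libraries are at 0.226 to 0.441 CPM, against limits of 0.230 to 1.54 CPM in the DMSO libraries. With IC, they are at 0.360 to 0.427 CPM, against limits of 0.252 to 0.330 CPM in the DMSO libraries. The levels thus lie close to what these libraries can show. Most exon bases of Nrarp are shared with Gm38287 on the opposite strand, and the strand setting of the counting was not given. Whether reads from Gm38287 affected these counts was not tested.

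Neurl1a, a ligand ubiquitin ligase that also failed the filter, had 23 counts with Ova and DMSO, 9 with IC and DMSO, 20 with Ova and iBET and 15 with IC and iBET, summed over 3 mice, and no difference was read from them.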
